A study of Macaca mulatta with 2 samples.

Results

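The GABA-A receptor subunit genes described here were GABRA2, GABRA3, GABRA4, GABRA5, GABRB1, GABRB2 and GABRD, picked by symbol from the read counts of rhesus macaque prefrontal cortex. They were 7 of the 33618 genes listed and 7 of the 19 listed genes for subunits of this receptor. All 7 passed the filter on low values, which required at least 1 CPM (count per 1e6 reads) in one of the libraries, and each had over 22 CPM in both. The libraries were 1 control and 1 sevoflurane library, both labelled as prefrontal cortex of postnatal day 28. By the labels, sevoflurane was inhaled at about 2.5 to 3% for 4 h on each of 3 occasions, the first near postnatal day 7 and the later ones given as 14 and 28 days, as in the results of the study, while its methods give later days for all but the first. The labels carry the same treatment text for both libraries and no handling of the control animal. The study describes 3 animals per group, of which the others were not analysed here. With 1 library per group there is no replicate check, so no test was made, no p-value is given, and every difference below is one between these libraries and not between the conditions.

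GABA-A receptors are chloride channels of several subunits around a pore that open when GABA, the main inhibitory transmitter of the cortex, binds between an alpha and a beta subunit. Receptors with a gamma subunit are concentrated at synapses and carry fast inhibition. Those with the delta subunit, and many of those with the GABRA5 product, lie outside synapses and carry a slower, tonic current. Sevoflurane, a volatile anesthetic, increases the current through these channels, and the mix of subunits sets how a receptor responds. The subunit mix of the forebrain also changes as the brain matures after birth.

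Gene counts summed to 16960880 (control library) and 9839105 (sevoflurane library). With the scaling given below, the floor of 3 reads was 0.179 and 0.302 CPM. The counts are those of the authors, without normalization. Levels are given as CPM scaled by edgeR's TMM factors, and each log2 ratio of sevoflurane over control has an exact 95% interval that covers counting error only. Neuron and cortical excitatory neuron markers had reads in both libraries (10 of 10 and 7 of 7 genes). Of 7 markers listed for thalamus or striatum, LHX9 and GBX2 held 0 control reads and 3 and 4 sevoflurane reads, and the other 5 had reads in both libraries, from 139 (ADORA2A) to 1494 (RORA) in the control and from 69 (DRD2) to 1289 (RORA) in the sevoflurane library. Reads on 7 Y-linked genes numbered 3 in the control and 4308 in the other library. The methods of the study list only females in the control group and both sexes in the anesthesia group, so exposure, animal and sex cannot be told apart.

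Of the 7 subunit genes, 6 were lower and 1 was higher in the sevoflurane library, each with an interval that excluded equal expression, but relative to the summed reads of neuron markers GABRA4 and GABRB2 were not lower and 4 of the 7 were. By the interval alone, 28.1% of all genes tested were lower and 28.4% higher. GABRA3 and GABRA5 were at least 2-fold lower, GABRB1 came close to that, and GABRD was the gene that was higher. With the neuron marker reads as reference, of which MAP2 held the most, neither GABRA3 (-0.97) nor GABRA5 (-0.89) was 2-fold lower, and GABRD was at least 2-fold higher (1.06). Excitatory neuron marker reads, a reference chosen after seeing the data, shifted the ratios the other way. Per excitatory marker read 6 of the 7 were lower, GABRA4 (-0.60) and GABRB2 (-0.64) among them. GABRA3 (-1.65), GABRA5 (-1.58) and GABRB1 (-1.33) were then at least 2-fold lower, and GABRD was at 0.37. By TMM-scaled CPM, at least 2-fold lower were 2 of the 7, beside 5.47% of the 18050 genes tested. At least 2-fold higher were 0 of the 7, beside 7.56%. Their median log2 ratio was -0.41, against -0.0048 for all genes tested. Large ratios are less frequent among well covered genes. As a measure of coverage and not of transcript level, the mean CPM of the 7 was at least 38.1, and 5703 genes reached that value. Of those, 1.82% were at least 2-fold lower and 1.72% at least 2-fold higher, 40.7% were lower and 33.8% higher by the interval alone, and their median log2 ratio was -0.04.

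**Figure D1:**
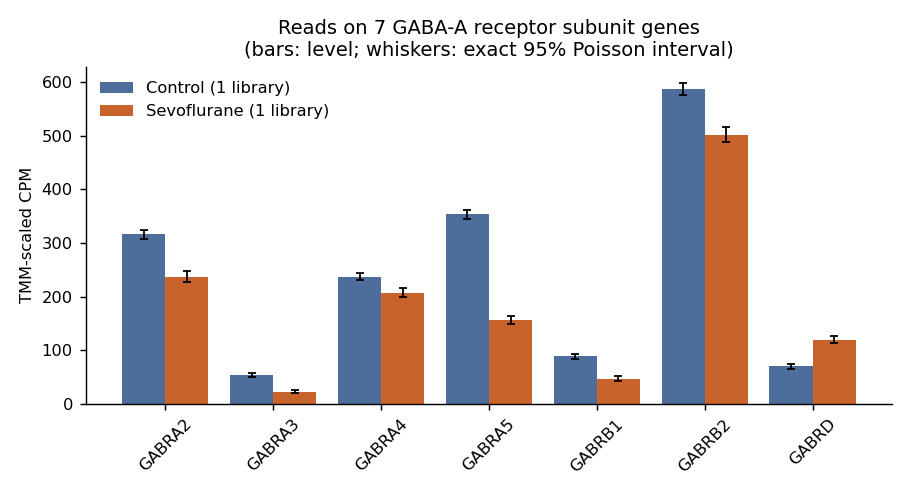
Level of each of the 7 subunit genes in the control (blue) and sevoflurane (orange) library, in TMM-scaled CPM, with exact 95% Poisson intervals of the read count as whiskers. The orange bar is lower for 6 genes and higher for GABRD, at 119.5 against 69.7 CPM. Of the 6, GABRA4 and GABRB2 were not lower per neuron marker read but were lower per excitatory marker read. Heights are comparable within a gene and not between genes, since the counts are not corrected for transcript length.

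Among the alpha subunits, GABRA5 held 5933 control and 1553 sevoflurane reads, or 353 and 156 CPM. Its log2 ratio was -1.17 (95% interval -1.26 to -1.09), a level 2.26-fold lower. GABRA5 encodes an alpha subunit of mainly extrasynaptic receptors and is known for its high level in the developing forebrain and the hippocampus. Counted from the lowest log2 ratio of the 18050 genes tested, it had rank 760. GABRA3 encodes an alpha subunit that is abundant in immature cortex. It held 903 control and 224 sevoflurane reads, or 53.7 and 22.6 CPM, with a log2 ratio of -1.25 (95% interval -1.47 to -1.04), which is 2.38-fold lower and rank 661. The counting intervals of both genes lay wholly beyond a 2-fold decrease under this scaling.

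The remaining alpha subunits differed much less. GABRA2, whose product is found at synapses, also on the axon initial segment of pyramidal cells, had 5310 and 2356 reads, or 316 and 237 CPM in the control and sevoflurane library. Its log2 ratio was -0.41 (95% interval -0.48 to -0.34), a level 1.33-fold lower. GABRA4, whose product is the usual forebrain partner of the delta subunit, had 3986 and 2058 reads, or 237 and 207 CPM. Its log2 ratio of -0.19 (95% interval -0.27 to -0.12) was the smallest in size of the 7. The alpha genes of the set therefore ran from 1.14-fold lower for GABRA4, which was not lower per neuron marker read, to 2.38-fold lower for GABRA3. Summed over these 4 genes, the alpha reads were lower by 0.62 on the log2 scale (log2 ratio -0.62, 95% interval -0.67 to -0.58).

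The beta subunits form the GABA site together with alpha and carry sites for several intravenous anesthetics. GABRB2, a beta subunit that is abundant in adult forebrain, had 9863 control and 4978 sevoflurane reads, or 587 and 501 CPM, with a log2 ratio of -0.23 (95% interval -0.28 to -0.18). GABRB1 had 1493 and 466 reads, or 88.8 and 46.9 CPM. Its log2 ratio was -0.92 (95% interval -1.07 to -0.77), a level 1.89-fold lower, whose interval reached past a 2-fold decrease. The beta members thus differed from each other, and the reads of GABRB2 over those of GABRB1 went from 6.61 in the control to 10.7 in the sevoflurane library, a change of 1.62-fold (exact 95% interval 1.45 to 1.81).

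GABRD encodes the delta subunit, which takes the place of gamma in extrasynaptic receptors that respond to low concentrations of GABA. It held 1172 control and 1187 sevoflurane reads, although the sevoflurane library was the shallower one by a factor of 1.72. Scaled to depth, these were 69.7 and 119.5 CPM, with a log2 ratio of 0.78 (95% interval 0.66 to 0.89), or 1.71-fold higher. At a threshold of 1.5-fold, GABRD counted as higher (1 of 7, beside 14.4% of all genes tested) and GABRA3, GABRA5 and GABRB1 as lower (3 of 7, beside 11.9%).

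**Figure D2:**
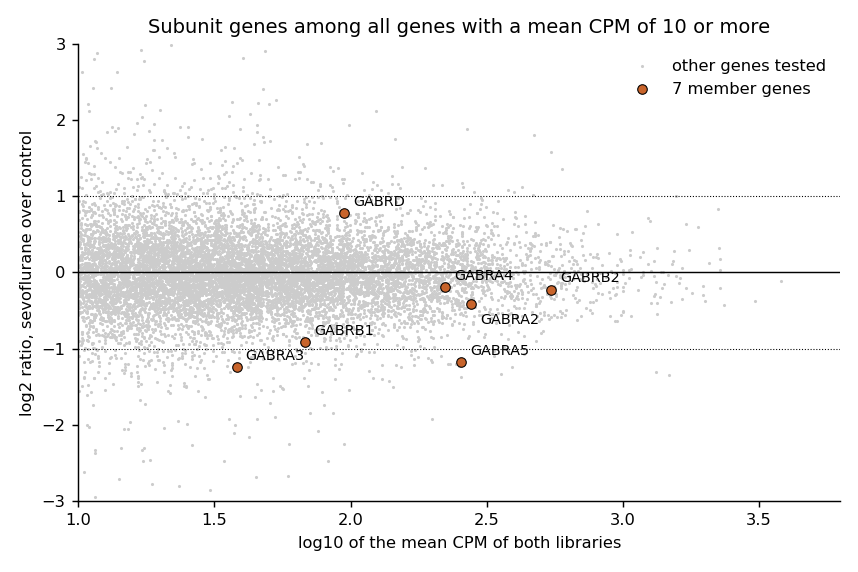
Log2 ratio of sevoflurane over control against the log10 of the mean CPM of both libraries, for genes whose mean was 10 CPM or more (grey, with the 7 subunit genes in orange) and log2 ratios within 3 of 0. Dotted lines mark 2-fold. GABRA3 (-1.25) and GABRA5 (-1.17) lie below the lower line, GABRB1 (-0.92) just above it, and GABRD (0.78) is the only one of the 7 above 0.

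The share of each gene among the reads of the 7 does not depend on how the libraries were scaled. Transcript length cancels when a share is set against the share of the same gene in the other library, but not between genes, so the genes were not ranked by level. In all, 28660 control and 12822 sevoflurane reads fell on the 7 genes. GABRA5 went from 20.7% (exact binomial 95% interval 20.2 to 21.2%) to 12.1% (11.6 to 12.7%), a difference of -8.59 percentage points. GABRD went from 4.09% (3.86 to 4.33%) to 9.26% (8.76 to 9.77%). These were the largest shifts in either direction, and the intervals of the libraries did not overlap.

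The share of GABRB2 was 34.4% (33.9 to 35.0%) in the control library and 38.8% (38.0 to 39.7%) after sevoflurane. GABRA4 had 13.9% (13.5 to 14.3%) and 16.1% (15.4 to 16.7%). Both genes therefore took a larger part of the subunit reads in the sevoflurane library, although their CPM, unlike their reads per neuron marker read, was lower there. GABRB1 went from 5.21% (4.95 to 5.47%) to 3.63% (3.32 to 3.97%), and GABRA3 from 3.15% (2.95 to 3.36%) to 1.75% (1.53 to 1.99%). GABRA2 took 18.5% (18.1 to 19.0%) and 18.4% (17.7 to 19.1%), so that a difference in its share was not detectable at this depth.

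**Figure D3:**
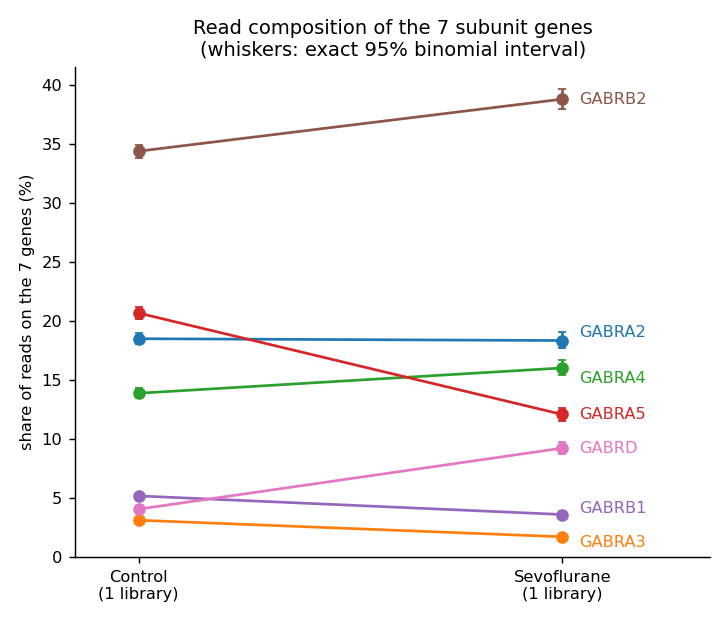
Share of each gene among the reads of the 7 subunit genes, in percent, in the control and the sevoflurane library, with exact 95% binomial intervals. GABRA5 goes from 20.7 to 12.1% and GABRD goes from 4.09 to 9.26%, while the line of GABRA2 is level at 18.5 and 18.4%.

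Setting the genes against each other in pairs gave the same quantities without any scaling. Of the 21 pairs, 19 had an exact conditional 95% interval for the change in their read quotient that excluded 1, and 7 changed at least 2-fold. The pairs share the same 7 genes and are not independent, and the share over pairs of other genes was not computed. Of the 5703 genes of at least the lowest member's mean CPM, 40.7% were lower and 33.8% higher by the interval alone. Those are shares of single genes and not of pairs. Without a background for pairs, the counts of 19 and 7 cannot be read as particular to these genes. GABRD against GABRA3 moved most, from 1.30 reads per read in the control to 5.30 in the sevoflurane library, a change of 4.08-fold (95% interval 3.45 to 4.85). GABRD over GABRA5, the delta subunit against the alpha subunit of the other main extrasynaptic receptor, went from 0.198 to 0.764, or 3.87-fold (3.50 to 4.27). GABRD over GABRA4, genes whose products assemble together, went from 0.294 to 0.577, or 1.96-fold (1.78 to 2.16).

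Within the alpha genes, the reads of GABRA4 over GABRA5 went from 0.672 to 1.33, or 1.97-fold (1.82 to 2.13), and those of GABRA2 over GABRA5 from 0.895 to 1.52, or 1.70-fold (1.57 to 1.83). Among all 21 pairs of the 7 genes, 2 had no change that was detectable at this depth. GABRA5 and GABRA3 kept a quotient of 6.57 and 6.93 (change of 1.06-fold, 0.901 to 1.24), and GABRA4 and GABRB2 one of 0.404 and 0.413 (1.02-fold, 0.960 to 1.09). The 7 genes thus formed 1 pair that was low by a similar amount, with GABRB1 near it, 1 pair that differed little, GABRA2 between them, and GABRD on the other side of equal expression.

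The other GABA-A receptor subunit genes numbered 12, of which 7 passed the filter. Of these, 1 was at least 2-fold lower and 2 at least 2-fold higher, beside 5.47% and 7.56% of all genes tested. Both higher genes had few reads, and with a filter of 5 CPM 0 were higher. The median log2 ratio of the 7 was -0.42. GABRG1, a gamma subunit, had 1486 and 510 reads and a log2 ratio of -0.78 (95% interval -0.93 to -0.64), between those of GABRA2 and GABRB1.

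The gene at least 2-fold lower was GABRQ, for the theta subunit, with 420 reads against 89 in the sevoflurane library (log2 ratio -1.46, 95% interval -1.83 to -1.15). GABRE, for the epsilon subunit, was higher at 22 and 37 reads (log2 ratio 1.41, 95% interval 0.71 to 2.34). GABRR3, a rho subunit gene, had 0 control and 10 sevoflurane reads, with a lower 95% counting limit of its log2 ratio of 1.92. Its sevoflurane CPM was 5.64-fold the CPM of the floor of 3 control reads. That floor is a convention, so 5.64-fold is not a limit set by the counts. GABRR3 passed the filter only through the sevoflurane library. With GABRR3 set to the ratio against the floor, the median of the 7 stayed at -0.42. The 5 genes under the filter were GABRA6 (1 and 2 reads), GABRG3 (8 and 7), GABRR2 (5 and 4), and GABRP and GABRR1, with 0 reads in both libraries.

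**Figure D4:**
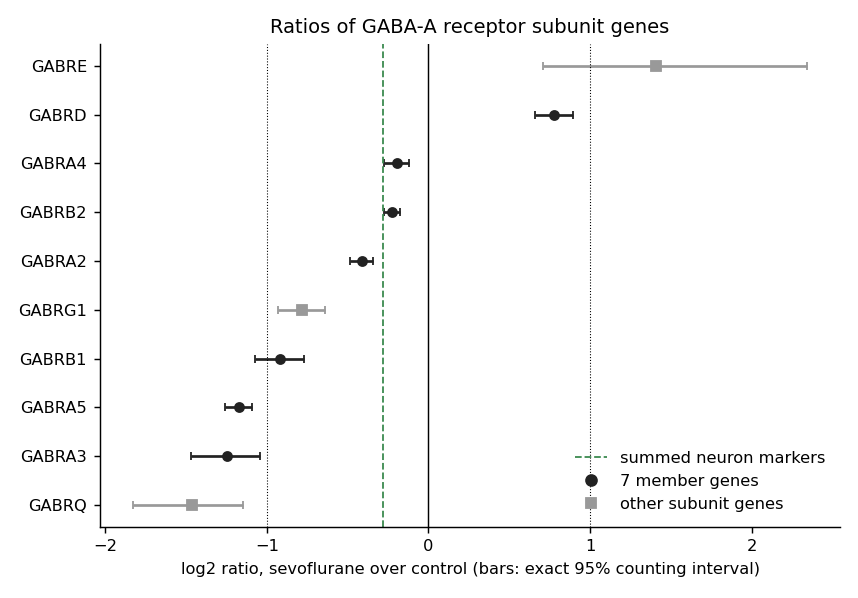
Log2 ratio of sevoflurane over control for 10 subunit genes, with exact 95% counting intervals; black circles are the 7 genes of the set and grey squares GABRG1, GABRQ and GABRE. Dotted lines mark 2-fold and the green dashed line the summed neuron markers, at -0.28. GABRA4 and GABRB2 lie to the right of the green line and GABRA3, GABRA5 and GABRB1 far to its left.

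Against all 19 subunit genes, the 7 took 73.4% of the reads in the control library and 74.2% after sevoflurane. The alpha genes together held 54.0% (95% interval 53.5 to 54.5%) and 48.4% (47.6 to 49.1%), the beta genes 30.4% (30.0 to 30.9%) and 32.9% (32.2 to 33.6%), and the gamma genes 11.4% (11.1 to 11.7%) and 11.0% (10.6 to 11.5%). GABRA5 alone went from 28.1% to 18.6% of the alpha reads, while GABRA2 went from 25.2% to 28.2% and GABRA4 from 18.9% to 24.6%.

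Most GABA-A receptor genes lie in clusters, and by gene order in the RefSeq table of macaque assembly MMU8v2.0 the set falls on chromosomes 1, 5, 6, 7 and X. On chromosome 5, GABRG1 (-0.78) and GABRA2 (-0.41) are adjacent, and so are GABRA4 (-0.19) and GABRB1 (-0.92), with COX7B2 between the pairs, so that direct neighbours differed in log2 ratio. GABRA5 (-1.17) is on chromosome 7, next to GABRG3, which was under the filter, and GABRB2 (-0.23) is on chromosome 6. GABRD is on chromosome 1 with no other subunit gene there.

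GABRA3 is X-linked, beside GABRQ, and the libraries differed in Y-linked reads. The 563 X-linked genes tested had a median log2 ratio of -0.09, with 33 at least 2-fold lower and 26 at least 2-fold higher, and the 14491 autosomal genes a median of -0.01, with 700 at least 2-fold lower and 979 at least 2-fold higher. GABRA3 (-1.25) and GABRQ (-1.46) were far below the X-linked median, whereas GABRE (1.41), on the same chromosome, was above it. The part of sex in the ratio of GABRA3 cannot be told apart from that of exposure.

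Cell type markers moved between the libraries as well, and in bulk tissue fewer cells of a type and less RNA per cell cannot be told apart. The 2-fold calls in the marker lists stand beside 5.47% of all genes tested at least 2-fold lower and 7.56% at least 2-fold higher. The 10 neuron markers had a median log2 ratio of -0.27, none at least 2-fold apart, from -0.64 (ENO2) to 0.83 (RBFOX3), and summed levels of 8788 CPM in the control library and 7234 after sevoflurane. Of the 10, 7 had a negative and 3 a positive log2 ratio. MAP2 (-0.37) alone held 58204 of the 147675 control and 26597 of the 71843 sevoflurane reads, so the summed reference rests in large part on that gene. Per read on these markers, which shifts every gene by 0.28, the log2 ratios were -0.97 for GABRA3, -0.89 for GABRA5, -0.64 for GABRB1 and -0.13 for GABRA2. They were 0.05 for GABRB2, 0.09 for GABRA4 and 1.06 for GABRD. On that scale GABRD was at least 2-fold higher and no gene of the set was at least 2-fold lower. Per excitatory marker read, which shifts every gene by -0.41, GABRD was at 0.37 and GABRA3, GABRA5 and GABRB1 were at least 2-fold lower. The 7 excitatory neuron markers had a median of 0.32 and sums of 4567 and 6058 CPM, with NRGN (1.01) at least 2-fold higher and NEUROD6 (-2.69) at least 2-fold lower. The 11 interneuron markers, which share GAD1, GAD2 and SLC32A1 with the list of GABA synthesis and transport, had a median of -0.23 and sums of 832 and 680 CPM. Among the interneuron markers PVALB, the calcium-binding protein of fast-spiking basket cells, went from 68 to 221 reads (log2 ratio 2.42), and LAMP5 was lowest (-0.80).

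Layer markers differed in opposite directions. The 4 upper-layer markers had a median log2 ratio of 0.61, from -0.80 (LAMP5, also an interneuron marker) to 1.12 (CUX2, at least 2-fold higher), and summed levels of 400 and 696 CPM in the control and sevoflurane library. The 3 deep-layer markers had a median of -0.78, from -1.14 (FEZF2, at least 2-fold lower) to 0.01 (FOXP2), and sums of 66.3 and 38.1 CPM. Astrocyte markers had a median of -0.57 (6 genes, lowest AQP4 at -1.38 and GFAP at -1.35, highest SLC1A3 at 0.27) and sums of 6083 and 4199 CPM. Oligodendrocyte markers had a median of -1.17 and sums of 4056 and 1994 CPM. At least 2-fold lower were 5 of 6 (among them MOG -1.90, MAG -1.21, CNP -1.12 and MOBP -1.10), and MBP was at -0.56. Over all genes tested, 5.47% were at least 2-fold lower and 7.56% at least 2-fold higher. Among genes with a mean CPM of at least 38.1, 1.82% were at least 2-fold lower. Oligodendrocyte precursor markers, a cell type that also carries GABA-A receptors, had a median of -0.43 (4 genes, VCAN -0.50 to CSPG4 -0.22) and sums of 409 and 307 CPM. Each gene counted in these lists had reads in both libraries. Of the genes listed, 1 of 12 interneuron, 1 of 5 upper-layer and 2 of 5 deep-layer markers were not analysed here. The part of cell or layer composition in the subunit ratios was not tested.

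Microglia (5 genes, median 0.22, P2RY12 -0.52 to C1QA 0.55) had summed levels of 211 CPM in both libraries, and endothelial genes (3 genes, median 0.13, FLT1 -0.37 to CLDN5 0.20) of 84.9 and 82.9 CPM. The 5 tested genes of the list for thalamus or striatum had a median of 0.40, from DRD1 (-0.48) to PPP1R1B (1.24, at least 2-fold higher), and the 7 genes of that list had summed levels of 176 and 262 CPM. The part of tissue outside the cortex in the subunit ratios was not tested.

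Genes of GABA synthesis and of the inhibitory postsynapse were described by the same counts. Of the 12 genes for GABA synthesis, transport and breakdown, 0 were at least 2-fold lower and 1 at least 2-fold higher, beside 5.47% and 7.56% of all genes tested, with a median log2 ratio of -0.09. GAD1 and GAD2, which make GABA, had log2 ratios of -0.23 and -0.30, and SLC32A1, which loads it into vesicles, -0.34. Of the transporters that take GABA up, SLC6A11 had a log2 ratio of 0.49, and SLC6A13, a transporter known from meninges and vessels, went from 199 to 247 reads (log2 ratio 1.06).

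Of 20 genes tested for the inhibitory postsynapse and receptor trafficking, 0 were at least 2-fold apart in either direction, and the median was -0.16. Both counts are near the share over all genes, so they say nothing particular of these lists. SHISA7, an auxiliary protein of the receptor, was highest (log2 ratio 0.55) and HAP1, which takes part in its recycling, lowest (-0.80). The scaffold gene GPHN (gephyrin) had 120 and 98 reads, with a log2 ratio of 0.46 (95% interval 0.07 to 0.86). NLGN2, an adhesion protein of inhibitory synapses, had 0.15. RDX, which anchors GABRA5-containing receptors to actin, had -0.17, and GABRA5 itself -1.17.

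**Figure D5:**
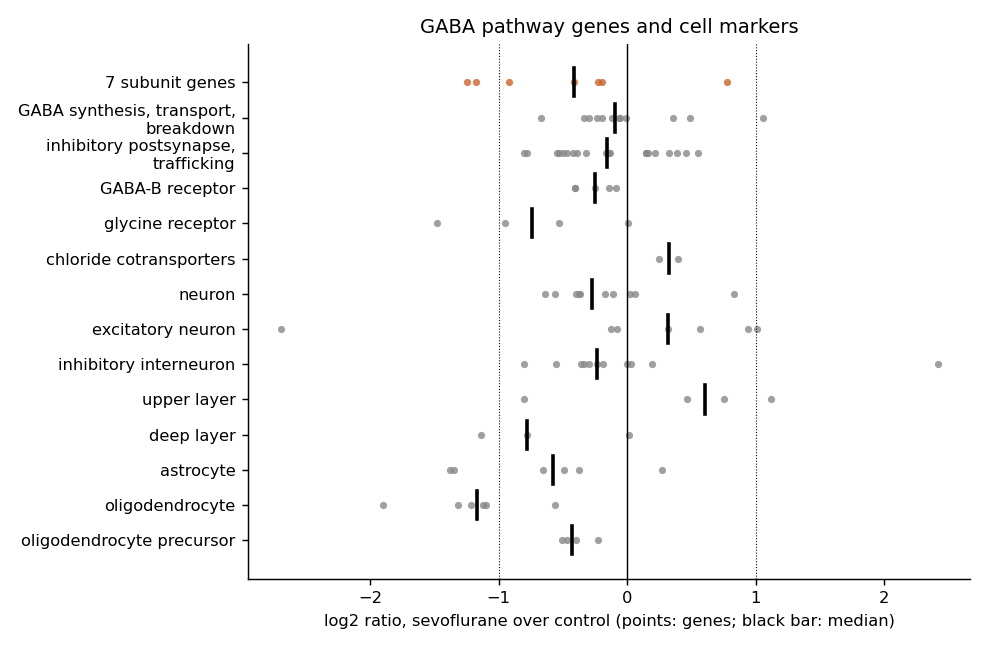
Log2 ratios of sevoflurane over control for the genes tested in each list drawn, with black bars at the medians and the 7 subunit genes in orange. Not drawn are the lists of other GABA-A receptor subunits, where GABRQ was at -1.46, of microglia, of endothelial genes and of thalamus or striatum. GABRA3 and GABRA5 lie below -1, as does GLRA4 (-1.48) of the glycine receptor list. Genes of the excitatory neuron, deep layer, astrocyte and oligodendrocyte lists lie there too. No gene of the GABA synthesis, postsynapse or GABA-B receptor lists does.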

How the data were processed

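RNA of rhesus macaque prefrontal cortex was sequenced, and 1 control and 1 sevoflurane library were analysed here. The table the authors deposited holds counts of reads on each gene as whole numbers, not normalized. The submitters' processing notes name HISAT2 2.0.4; counting tool, strand setting, genome build and annotation are not given in the sources used here. Reads shared between paralogs or overlapping genes may therefore be split in unknown ways.

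Subunit genes were matched by symbol. TMM factors (edgeR 4.0.16, R 4.3.3) came from the 18050 genes that reached 1 CPM in one of the libraries, and log2 ratios used a prior count of 2. Exact 95% Clopper-Pearson limits (scipy 1.17.1, Python 3.11.15) of the sevoflurane share of each gene's reads gave their intervals. A gene counted as higher or lower at 2-fold with an interval excluding equal expression. The steps were tested on simulated counts that held counting error only, as the intervals assume. Variation between animals or pieces of tissue was not simulated. Alternatives covered scaling (DESeq2 1.42.0 among them), prior count, filter, depth and threshold. Chromosomes came from the RefSeq table, which matched 83.5% of tested genes by symbol.

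The members and lists were chosen with earlier results of these data known. The text names every member, the other listed subunit genes, and in each list the genes past 2-fold and both extremes, except that some items these choices cover are not reported here; the other list genes named, the chromosome comparison by gene and the level of 38.1 CPM were chosen after values were seen. No protein or promoter sequences were used here, so none are shown and levels were not corrected for length.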

Additional observations from a re-analysis of the deposited data

How the results depend on the processing

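No paired analysis was possible because a single library represents each group, and for the same reason no replicate could be left out. Under other scalings, prior counts, filters and depths, the 7 subunit genes kept their direction, with GABRA3 between -1.29 and -1.22, GABRA5 between -1.20 and -1.15 and GABRD between 0.75 and 0.80. Their median ran from -0.43 to -0.39. Reads on neuron markers as the reference gave -0.13 (GABRA2), -0.97 (GABRA3), 0.086 (GABRA4), -0.89 (GABRA5), -0.64 (GABRB1), 0.053 (GABRB2) and 1.06 (GABRD). As references chosen after seeing the data, excitatory markers gave -0.82, -1.65, -0.60, -1.58, -1.33, -0.64 and 0.37 in that order, and interneuron markers -0.12, -0.96, 0.10, -0.88, -0.63, 0.064 and 1.07, which shifts all genes by -0.41 and 0.29. At 1.5-fold 1 of the 7 was higher, and at 4-fold 0 were lower. Over all genes, 1364 were at least 2-fold higher and 988 lower, against 606 and 474 with a filter of 5 CPM, 2604 and 2141 at 1.5-fold, and 352 and 221 at 4-fold.

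With all subunit genes as the denominator, the control shares of GABRA2, GABRA3, GABRA4, GABRA5, GABRB1, GABRB2 and GABRD were 13.6, 2.31, 10.2, 15.2, 3.82, 25.2 and 3.00%, and the sevoflurane shares 13.6, 1.30, 11.9, 8.99, 2.70, 28.8 and 6.87%. With a stricter interval than 95% the quotients of GABRB1 over GABRA3 (1.26) and over GABRA5 (1.19) no longer excluded 1. Among lists, the filter of 1 read moved the median of the other subunit genes to -0.030, put NRGN under 2-fold (0 excitatory markers higher) and gave 2 higher genes outside the cortex. The filter of 5 CPM left 0 other subunit genes higher and a microglia median of 0.081, which was 0.10 with the control sampled down. Library totals gave an excitatory median of 0.34. Shares per coding length were not run. Of 605 alternative values, 540 kept within their counting interval or 1.5 times their count, or for the stricter interval left the exclusion of 1 unchanged. Many of these could hardly move, since DESeq2, upper-quartile and total scaling shifted all genes by 0.0053, 0.010 and 0.027. Neuron marker reads as reference moved 11 values and left 3, and excitatory marker reads moved 12 and left 2.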

Other observations

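Other receptors and transporters of inhibition were measured beside the subunit genes. Glycine receptors, chloride channels of the same family that volatile anesthetics also act on, had 5 listed genes, of which 4 were tested with a median log2 ratio of -0.74. GLRA4 was at least 2-fold lower (1 of 4, beside 5.47% of all genes tested). It had 99 reads against 20 in the sevoflurane library (log2 ratio -1.48, 95% interval -2.32 to -0.84). GLRA2, an alpha subunit known from immature cortex, had 402 and 122 reads (-0.95), and GLRA3 1487 and 608 (-0.53). The beta subunit gene GLRB, with 1232 and 733 reads, was the highest (log2 ratio 0.01, 95% interval -0.12 to 0.14), and GLRA1 had 3 and 4 reads.

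Of the 5 genes of the metabotropic GABA-B receptor, 0 were at least 2-fold apart, with a median log2 ratio of -0.25. Over all genes tested, 5.47% were at least 2-fold lower and 7.56% higher, so that count says nothing particular of this list. GABBR1 had 16238 and 8061 reads (-0.25) and GABBR2 506 and 282 (-0.08, 95% interval -0.30 to 0.13). The lowest was the auxiliary subunit gene KCTD12 (-0.41). Of the chloride cotransporters, which set whether GABA excites or inhibits, SLC12A5, the exporter of mature neurons, had 7802 and 6082 reads (log2 ratio 0.40, 95% interval 0.35 to 0.45). The importer SLC12A2 had 179 and 126 (0.25, 95% interval -0.09 to 0.59).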
